A study of Mus musculus with 2 samples.

Results

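Of the 21192 peaks of N4-acetylcytidine (ac4C) in the whole mouse uterus, 200 lay in genes for long noncoding RNAs (lncRNAs) and outside every protein-coding gene. A peak was counted when its summit, the position of deepest coverage, fell in a RefSeq gene of kind lncRNA and in no span of a protein-coding gene, introns included. These 200 peaks made up 0.944% of the list (95% Wilson interval 0.822 to 1.08%). They lay in 139 of the 12731 lncRNA genes of the gene table and on 21 chromosomes, and 11 of them lay in more than 1 lncRNA gene. The chromosomes include Y, with 2 peaks, in Gm33272 (chrY:90794171-90794730) and LOC108168645 (chrY:90843805-90844012). The uterus is a female organ, and whether chromosome X holds the same sequence was not tested. Where the fragments of these Y peaks came from was not tested either. A further 815 summits lay in an lncRNA gene and a protein-coding span at once, and those were not counted.

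Both libraries were made from polyA RNA of wild-type mice. The tissue was the whole uterus, taken at gestational day 4. In 1 library, RNA fragments were pulled down with an antibody against ac4C, and the other was the input control. The labels name no strain, age, number of animals or pooling. With 1 library on each side there was no replicate error, so none of the differences below could be tested. They are descriptions of this pair of libraries. The list gives no expression levels, so the tissue label was not checked against levels of marker genes. In RNA of a whole organ, fewer cells of a type and less RNA per cell cannot be told apart.

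ac4C is a cytidine that carries an acetyl group, placed by the acetyltransferase Nat10 in ribosomal and transfer RNA and reported in messenger RNA. lncRNAs are transcripts without a long reading frame, and some act in the nucleus, where they hold speckles or paraspeckles together or silence chromatin. Others host microRNAs or small nucleolar RNAs in their introns and exons, and many lie antisense to, or start beside, a gene for a transcription factor. A peak does not show which strand was read, because the list gave strand for 0 peaks.

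Some of the lncRNA genes hold microRNA precursors, and the products are shown to say which microRNAs these loci are known for. They do not identify the RNA under a peak. The table of miRNAs from RefSeq (GRCm38.p6) placed 15 hairpins inside the spans of 11 of the 139 genes. A peak touched 1 of the 15, Mir3069 in Snhg10. The mature strands below are printed 5′ to 3′, with the seed (bases 2 to 8) in capitals. They come from Lncppara (the let-7 pair), Mir22hg, H19 (miR-675), C430049B03Rik (miR-322 and miR-503) and Gm13648 (the miR-200 family).
let-7b-5p: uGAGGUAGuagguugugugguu
let-7c-5p: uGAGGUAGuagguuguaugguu
miR-22-3p: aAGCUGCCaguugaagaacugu
miR-675-5p: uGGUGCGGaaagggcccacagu
miR-322-5p: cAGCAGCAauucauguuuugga
miR-503-5p: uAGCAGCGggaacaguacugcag
miR-200b-3p: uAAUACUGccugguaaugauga
miR-429-3p: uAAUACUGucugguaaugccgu
miR-200a-3p: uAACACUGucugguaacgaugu
The let-7 pair share the seed GAGGUAG, and miR-200b and miR-429 share AAUACUG.

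The RefSeq promoter table gave a window of 300 bases (250 before and 50 after the start) for 108 of the genes, and in 10 of them a peak touched the window. The start itself was not under the peak in all 10; in Gm34755, Gm40843 and Rab10os the peak began after it. Of these, 4 windows are shown, with the bases under the peak in capitals and the rest in lower case. Gm34755 (chr6:128798459-128798758, plus strand) had the highest fold enrichment of the 10, 25.7 (18.2 to 35.4) on 36 fragments. Gm46178 (chr1:191120652-191120951, plus strand) had 194 of its 300 bases covered by a peak of 9.87 (5.47 to 16.7) on 12 fragments. Gm35279 (chr13:98993988-98994287, plus strand) and Gm41501 (chr16:93705167-93705466, plus strand) are shown as a pair because they are nearly the same sequence, under peaks of 4.81 (3.15 to 7.06) and 5.90 (4.25 to 7.98).
Gm34755: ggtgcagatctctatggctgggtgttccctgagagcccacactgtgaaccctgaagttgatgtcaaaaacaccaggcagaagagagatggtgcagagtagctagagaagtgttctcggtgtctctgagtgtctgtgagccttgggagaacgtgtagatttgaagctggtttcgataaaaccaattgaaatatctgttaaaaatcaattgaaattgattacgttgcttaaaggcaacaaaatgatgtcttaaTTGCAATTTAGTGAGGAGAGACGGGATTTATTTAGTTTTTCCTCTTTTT
Gm46178: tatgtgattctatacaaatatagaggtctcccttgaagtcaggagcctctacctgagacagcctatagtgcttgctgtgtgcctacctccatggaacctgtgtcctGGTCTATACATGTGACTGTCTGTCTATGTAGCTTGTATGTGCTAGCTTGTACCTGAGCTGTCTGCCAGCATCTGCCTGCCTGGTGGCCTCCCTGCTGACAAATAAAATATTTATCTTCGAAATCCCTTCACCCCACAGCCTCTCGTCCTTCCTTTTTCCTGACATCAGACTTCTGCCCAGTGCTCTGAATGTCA
Gm35279: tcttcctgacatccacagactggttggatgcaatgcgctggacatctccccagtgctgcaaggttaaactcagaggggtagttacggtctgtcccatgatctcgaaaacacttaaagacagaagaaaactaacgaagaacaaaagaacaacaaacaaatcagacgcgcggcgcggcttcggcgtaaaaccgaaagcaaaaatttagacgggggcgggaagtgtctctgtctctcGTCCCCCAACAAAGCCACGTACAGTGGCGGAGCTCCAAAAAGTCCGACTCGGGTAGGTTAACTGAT
Gm41501: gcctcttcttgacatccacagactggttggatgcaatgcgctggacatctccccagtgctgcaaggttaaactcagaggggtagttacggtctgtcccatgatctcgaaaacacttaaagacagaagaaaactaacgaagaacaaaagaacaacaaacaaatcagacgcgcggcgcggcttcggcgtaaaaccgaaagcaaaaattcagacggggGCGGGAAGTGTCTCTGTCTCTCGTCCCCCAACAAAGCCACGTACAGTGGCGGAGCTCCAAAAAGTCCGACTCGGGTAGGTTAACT
The windows of Gm35279 and Gm41501 matched at 295 of 297 aligned bases (99.3%), and each peak covered the part of the window nearest to and beyond the start. Fragments of such copies were not traced to one chromosome or the other here. Gm43305 on chromosome 14 and Gm40843 on chromosome 12 likewise shared a run of 121 identical bases, which 3 genes of the promoter table held. A run of 5 units of CNN (a C and any 2 bases, repeated, searched on both strands) was in 3 of the 12 start windows touched by a peak, as some genes have more than 1 start. It was in 52.1% of the 11588 windows of lncRNA genes and in 63.2% of all 32851 windows. These are matches of letters and not sites of modification.

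As a group, the peaks in lncRNA genes had a median fold enrichment of 4.87 (95% interval of the median 4.63 to 5.19), and the values ran from 1.69 to 31.1. Fold enrichment is the authors' deposited ratio, the signal of a summit over its background. All peaks had a median of 5.58, peaks in 1 protein-coding gene 5.57 and peaks in pseudogenes 6.83. The median width was 316.5 bp in lncRNA genes and 315.5 bp over all peaks. At least 1000 bp were reached by 13 of the 200 (6.50%), against 5.50% of all peaks. A fold enrichment of 10 or more was reached by 19 of the 200 (9.50%, interval 6.17 to 14.4%), against 10% over the whole list, so that share was near the background.

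Depth differed more than the medians show. The median summit held 21 fragments of the immunoprecipitation over a background of 2.63, beside 22 over 2.63 for all peaks. Both ends of the background range were filled more often in lncRNA genes than over all peaks. Backgrounds below 0.5 fragments belonged to 17.5% of the 200 peaks and to 7.56% of all peaks. The low end was not particular to lncRNA genes. The lowest background of the list, 0.317 fragments, belonged to 9.5% of the 200 and 2.92% of all peaks. It belonged to 22.7% of peaks in pseudogenes and 16.4% of peaks in no gene. Backgrounds of at least 32 fragments belonged to 5% of the 200 (10 peaks) and to 0.675% of all peaks. Malat1 alone held 5 of those 10. Without the 10 genes with most peaks, 1 of the remaining 139 peaks (0.719%) had such a background, near the share over all peaks. At like background the lncRNA median was below that of all peaks in 6 of 8 classes. With a background of 1 to 2 fragments the 25 lncRNA peaks had a median of 5.19 and all peaks 6.48, and with 2 to 4 fragments the values were 4.96 and 5.78. The lncRNA median was above in 2 classes, at 7.65 against 6.67 below 0.5 fragments and at 4.03 against 3.92 for 8 to 16 fragments.

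**Figure D1:**
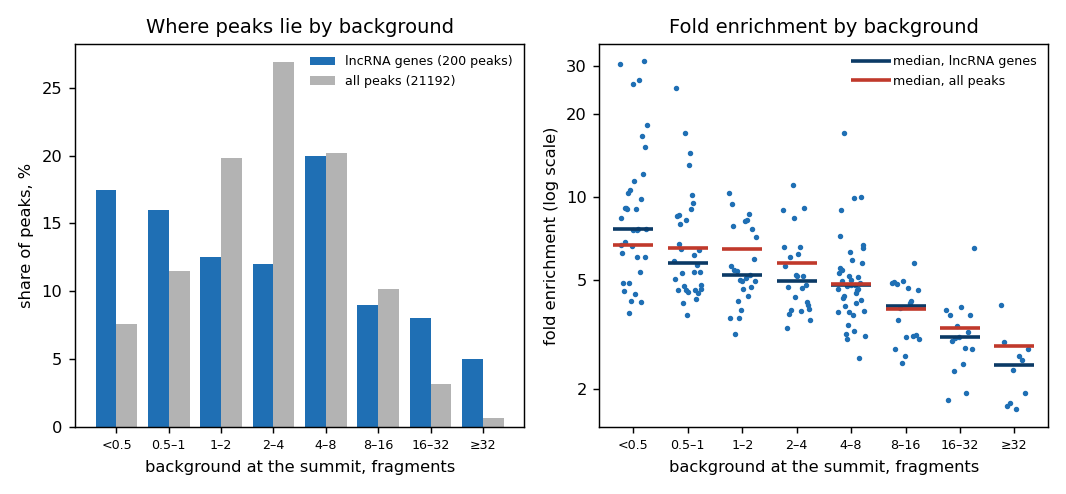
Left, share of peaks (%) in classes of background at the summit (fragments), for the 200 peaks in lncRNA genes (blue) and all 21192 peaks (grey). Right, fold enrichment on a log scale of each lncRNA peak (points) with the class median (dark blue bar) and the median of all peaks (red bar); the lncRNA median is 7.65 below 0.5 fragments and 2.45 at 32 fragments or more.

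Peaks were spread thinly over most of these genes. A single peak was found in 113 of the 139 genes, and 15 genes held 3 or more. The 10 genes with most peaks held 61 of the 200 (30.5%). Without them the median fold enrichment was 5.19 and the median depth 14 fragments. Genes that held a counted peak had a median length of 15.6 kb, and the other 12592 lncRNA genes had 8.36 kb. Those others include genes with peaks only inside protein-coding spans.

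**Figure D2:**
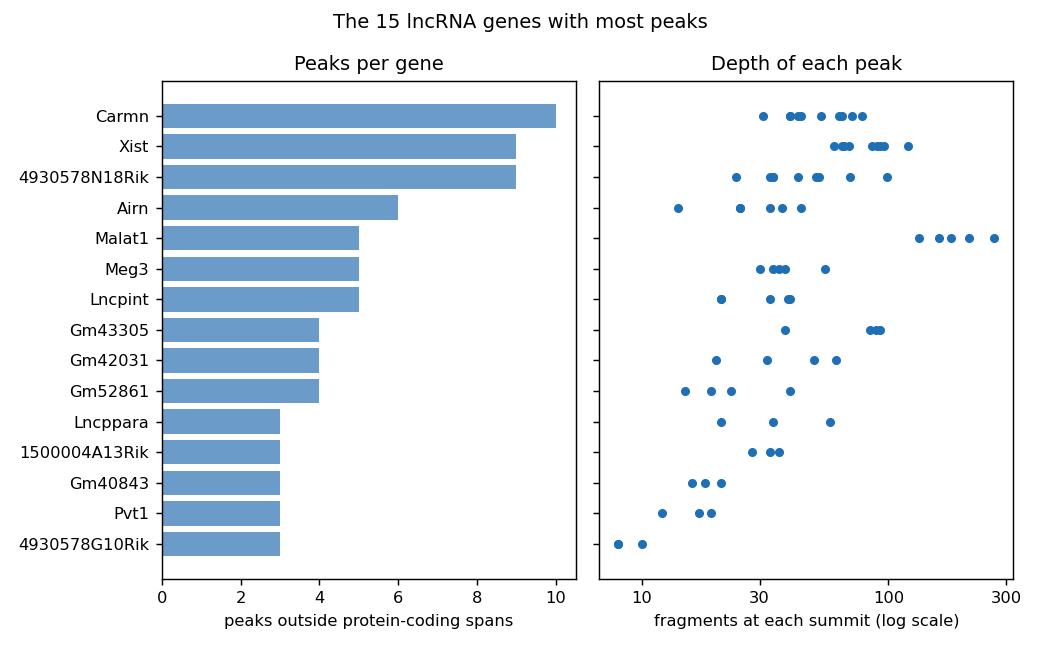
The 15 lncRNA genes with most peaks. Bars give the number of peaks per gene outside protein-coding spans, from 10 in Carmn to 3, and each point gives the fragments at 1 summit on a log axis; the 5 Malat1 summits, at 133 to 269 fragments, lie above those of the other 14 genes.

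Malat1 (NCBI gene 72289; chr19:5795690-5802672, minus strand) is an abundant RNA of nuclear speckles. Its 5 peaks covered 73.3% of a span of 6.98 kb. They held 133, 160, 179, 213 and 269 fragments, over backgrounds of 70.9 to 114 fragments. The highest background of the whole list was at a Malat1 summit, and only 22 of the 21192 peaks had a background at or above the lowest in Malat1. Fold enrichment was low throughout, from 1.69 to 2.98, with a median of 1.78. The highest value, 2.98 (95% Poisson interval 2.59 to 3.40), was that of the peak nearest to the 3′ end of the gene (chr19:5796185-5797661), with its summit 769 bp from that end. The next was 2.35 (2.08 to 2.65), with a summit 1474 bp from the gene start. The intervals of the other 3 peaks reached at most 2.08 and overlapped each other. Intervals here and below cover counting error of the immunoprecipitation alone, with the background taken as known.

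Neat1 (NCBI gene 66961), the scaffold RNA of paraspeckles and the neighbour of Malat1 on chromosome 19, held 1 peak in a span of 20.8 kb. That peak (chr19:5844243-5845413) was 1171 bp wide and held 70 fragments over a background of 24.1. Its fold enrichment was 2.83 (2.22 to 3.57), and its interval overlapped that of the highest Malat1 peak. Its summit was shallower than all 5 of Malat1. In the list of 11 nuclear RNAs, 5 held a counted peak (Malat1, Neat1, Xist, Airn and Meg3), and Ftx, Jpx, Firre and Miat held none. Over all lncRNA genes the share with a counted peak was 1.09% (139 of 12731). This list and those below were not matched to all lncRNA genes in length or level.

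Xist (NCBI gene 213742; chrX:103460373-103483233, minus strand), the RNA that coats and silences the inactive X chromosome, held 9 peaks. Their summits held 60 to 120 fragments over backgrounds of 17.5 to 35.0. The peak nearest to the gene start (chrX:103481854-103482415) was the deepest, at 120 fragments, and stood at 6.54-fold (5.43 to 7.81). Its summit lay 1208 bp from the start. The other 8 peaks ran from 1.94 to 3.73, and the highest upper bound among them was 4.60, below the interval of the first. All 9 summits also lay in Tsix, the antisense RNA of Xist, which the gene table counts as another kind, and without strand the transcripts cannot be told apart.

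**Figure D3:**
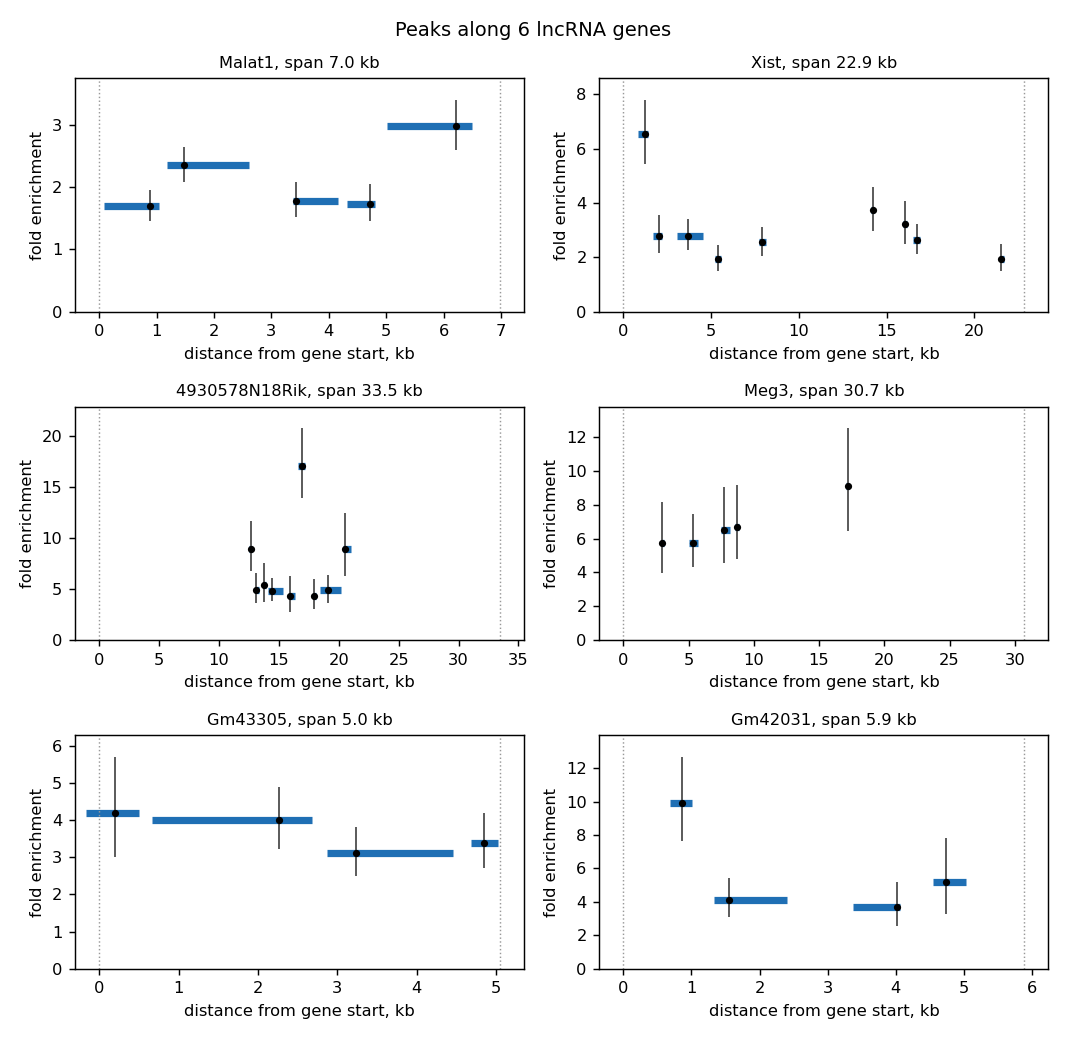
Peaks along 6 lncRNA genes with known strand, by distance from the gene start (kb); blue bars give the extent of each peak, points the summit, and vertical lines the 95% Poisson interval of fold enrichment. Dotted lines mark the start and end of the span; the highest value is nearest to the start in Xist (6.54) and nearest to the end in Malat1 (2.98).

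Carmn (NCBI gene 328968; chromosome 18), a host gene of microRNAs known from smooth muscle, held the most peaks, 10 in a span of 19.7 kb. They held 31 to 78 fragments over backgrounds of 11.9 to 23.6. Fold enrichment ran from 1.83 to 4.96 with a median of 3.04. The highest was at chr18:61658036-61658578, at 4.96 (3.83 to 6.32), and 2 of the 10 summits also lay in Bvht, an lncRNA gene known from heart development. The 10 peaks were spread over the gene rather than gathered at one place, covering 24.0% of it.

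The uncharacterised gene 4930578N18Rik (NCBI gene 78215; chr16:76122613-76156086, plus strand) held 9 peaks, all within the middle of its span, from 12649 to 20503 bp after the start. Of these, 8 stood between 4.31 and 9.0. The remaining one (chr16:76139197-76139754) stood at 17.1 (13.9 to 20.8), on 99 fragments over a background of 4.84, and its interval lay above those of the other 8. It had the most fragments among the 19 lncRNA peaks of at least 10-fold, 16 of which had a background below 1 fragment. The nearest protein-coding gene was Nrip1, a corepressor of nuclear receptors that is required for ovulation, 147883 bp from that summit and with 3 peaks of its own, up to 4.88-fold.

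**Figure D4:**
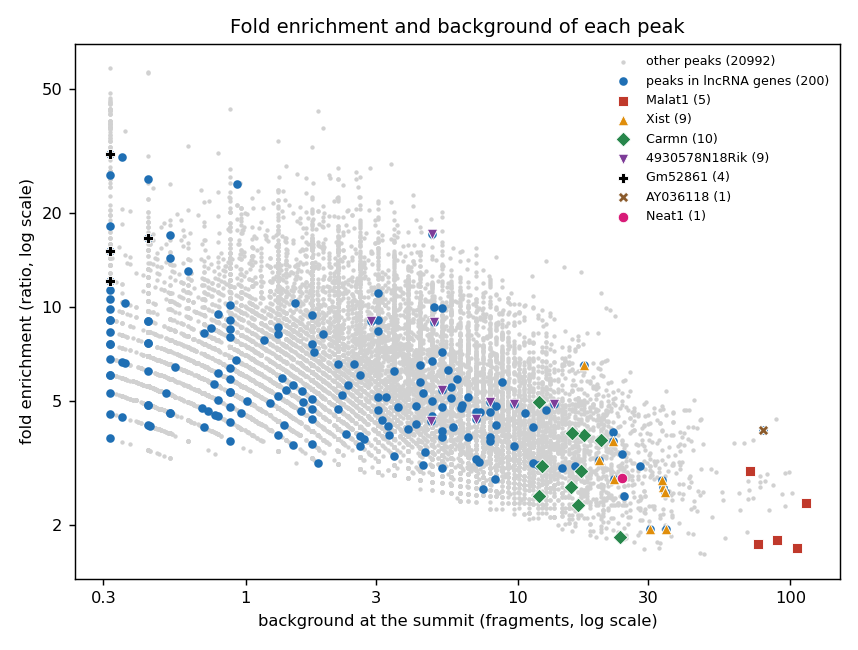
Fold enrichment against background at the summit for every peak, both on log axes; grey points are all other peaks and blue points the 200 peaks in lncRNA genes, with those of 7 genes in other colours and symbols. Malat1 lies at the far right (background 70.9 to 114, fold enrichment 1.69 to 2.98) and Gm52861 at the far left (background at most 0.438, fold enrichment 12.1 to 31.1), with the highest 4930578N18Rik peak (17.1) between them.

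Imprinted lncRNAs, which are read from only the maternal or the paternal copy, were a list of 9, of which 3 held a counted peak. Meg3 (NCBI gene 17263; chromosome 12) held 5, from 5.74 to 9.10 with a median of 6.51, on 30 to 55 fragments. The highest, at chr12:109558054-109558296, stood at 9.10 (6.45 to 12.5), and the intervals of the 5 overlapped. Each of the 5 was above the median of the whole list, which was not so for any peak of Malat1 or Carmn. A sixth peak of Meg3 lay in the span of Rtl1 and was not counted. H19 (NCBI gene 14955) held 1 peak, at 4.47 (2.95 to 6.52) on 25 fragments, 857 bp from the hairpin of Mir675.

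Airn (NCBI gene 104103; chromosome 17), the antisense RNA that silences the paternal Igf2r, held 6 counted peaks of 2.81 to 8.60-fold. A further 7 lay in the span of Igf2r. The 6 include one whose summit was 107 bp before the 5′ end of Igf2r (chr17:12769671-12769932, 2.81-fold, interval 1.86 to 4.10), and whether it belonged to Airn or to Igf2r was not tested. The highest (chr17:12837816-12838022, 8.60-fold, 4.96 to 14) rested on 14 fragments and also lay in the pseudogene Gm17592. Kcnq1ot1 and Snhg14 held peaks only inside protein-coding spans. Rian, Mirg and Peg13 held none, and Nespas, listed as Gnasas1, is of another kind in the table.

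Host genes of microRNAs held a counted peak in 2 of 14 listed genes, Carmn and Mir22hg. The peak of Mir22hg (NCBI gene 100042498; chr11:75462984-75463347) stood at 7.63 (4.8 to 11.6) on 20 fragments and ended 369 bp before the hairpin of Mir22. Outside the list, Lncppara (NCBI gene 102800312; chromosome 15) held 3 peaks upstream of its let-7 hairpins, the last of them 267 bp before Mirlet7c-2. The middle one (chr15:85704909-85705606) stood at 9.996 (7.63 to 12.9), just under 10-fold, on 58 fragments, and the other 2 at 4.85 and 4.23. C430049B03Rik, which holds Mir322 and Mir503, had 1 peak of 5.38 (3.04 to 8.93). Gm13648, which holds Mir200a, Mir200b and Mir429 of an epithelial family, had 1 of 4.98 (2.55 to 9.01) on 9 fragments, 202 bp from the gene start.

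Host genes of small nucleolar RNAs held a peak in 4 of 22, Snhg3, Snhg10, Snhg17 and Dancr. The single peak of Snhg3 (NCBI gene 399101) stood at 4.57 (3.44 to 5.97) on 52 fragments, with its summit inside Snora73b, a small nucleolar RNA of the H/ACA class. That of Snhg10 (3.15, interval 2.25 to 4.29) had its summit inside Scarna13, an RNA of Cajal bodies. Dancr stood at 6.45 (3.30 to 11.7) on 9 fragments, and the 2 peaks of Snhg17 at 3.11 and 4.95. The peaks of Snhg3, Snhg10 and one of Snhg17 therefore lay over small RNAs, and host and small RNA cannot be told apart. Gas5, Zfas1 and Snhg1 were among the 17 with no peak.

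Among well studied cytoplasmic and other RNAs, Norad, which sequesters Pumilio proteins, held 1 peak of 3.08 (2.32 to 4.02) on 52 fragments, in a stretch that Gm14170 also covers. Tug1 held 1 of 3.04 (2.25 to 4.04) on 46 fragments. Lncpint held 5, from 2.61 to 5.16, over a span of 124.9 kb, the first of them 230 bp from the gene start. Pvt1, the neighbour of Myc, held 3, from 3.91 to 4.15, on 12 to 19 fragments. Over all 99 listed lncRNAs, counted once each, 18 held a counted peak, 6 held peaks only inside protein-coding spans and 55 held none. Among all lncRNA genes of the gene table, 139 of 12731 (1.09%) held a counted peak. A further 10 were of another kind in the gene table and 10 were not matched in it. A missing peak was not shown to be missing modification, because the levels of those RNAs were not measured.

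Genes named as antisense to a protein-coding partner brought 10 of the 139 genes and 13 peaks, from 3.04 to 8.0-fold. Partners with peaks of their own included Foxl2, Hoxa11, Jun, Pla2g10, Rab10 and Sp3. Hoxa11os, antisense to a homeobox gene needed for uterine development, had a peak of 4.59 (3.27 to 6.28) on 37 fragments, 328 bp from Hoxa11, which held 2 peaks of up to 6.74. Foxl2os stood at 3.77 (2.13 to 6.26), 3206 bp from Foxl2, whose 1 peak reached 16.2. Sp3os stood at 7.18 (4.47 to 11) with its summit 25 bp outside Sp3, which held 2 peaks of up to 5.84. Hdnr, downstream of the stromal transcription factor gene Hand2, stood at 4.73 (2.62 to 7.98), 18294 bp away. In the list of 23 neighbours of developmental transcription factor genes, Hoxa11os was the 1 gene with a counted peak. In that list 3 held peaks only inside protein-coding spans, and 12 held none, Hand2os1, Hotair, Hottip and Fendrr among them. A further 2 were of another kind and 5 were not matched. Foxl2os, Sp3os and Hdnr are outside it and were named after their values were seen.

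Over all 200 peaks, 51 (25.5%, interval 20 to 32%) had a protein-coding gene no more than 5 kb from the summit. Of these, 34 were before the 5′ end of that gene, 9 past its 3′ end, and 8 beside a gene of unknown strand. In 36 of the 51 the neighbour held a peak as well. So it did for 84 of the 155 peaks with a neighbour within 50 kb, these 51 included. Beyond 50 kb it did for 23 of 45 peaks. A neighbour was counted once per peak, so Nrip1 counted 9 times, for the 9 peaks of 4930578N18Rik. The share of all protein-coding genes that held a peak is not given here. The median fold enrichment was 4.8 for these 51 and 4.87 for the 149 farther away. Transcripts that run beyond the gene table were not tested for.

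Within their own genes, peaks lay somewhat more often towards the start. For 153 peaks in a single lncRNA gene with known strand, with each span cut into 3 equal parts, 68 summits were in the first part, 48 in the middle and 37 in the last. Their median fold enrichment was 5.82, 4.92 and 4.62 in that order. Summits within 1 kb of the start numbered 26, and those within 1 kb of the end 14. Several of these peaks can come from the same gene, and they were counted separately. Parts of spans inside protein-coding genes could hold no counted summit, so the parts were not equally open. Exons were not told from introns.

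The highest fold enrichments belonged to genes with little background and mostly with model symbols (Gm or LOC and a number, or a RIKEN clone name). The 125 peaks with such symbols alone had a median of 5.33 over a background of 1.31, and the 75 with other symbols 4.04 over 7.27. These medians were not taken at like background. Over the whole list, the lowest fold enrichment was 3.34 below 0.5 fragments of background and 1.61 at 32 or more. All 19 peaks of at least 10-fold were among the 125. Gm52861 (chromosome 6) held 4 of them, at 12.1, 15.2, 16.7 and 31.1 (the last 22.5 to 42.1), on 15 to 40 fragments. Only 1 of the 4 had a background above the lowest of the list, 0.317 fragments. That lowest value was shared by 619 peaks of the list, and among them fold enrichment follows the number of fragments alone. On the same chromosome, Gm40371 (26.6), Gm34755 (25.7 and 11.4) and LOC115490435 (18.2) had backgrounds of at most 0.438. The second highest, 1700049J03Rik at 30.4 (21.9 to 41.1), and 9330111N05Rik at 24.9 (18.4 to 32.9) had their summits in the pseudogenes Gm8225 and Gm8399. Gm19951 stood at 17.0 on 25 fragments.

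In all, 38 of the 200 summits were shared with genes that were neither lncRNA nor protein-coding. Of these 38, 23 were in pseudogenes, with a median of 7.20. The 162 others had a median of 4.88. The deepest lncRNA summit, AY036118 on chromosome 17 (chr17:39848150-39848789), held 325 fragments over a background of 79.7 and stood at 4.04 (3.62 to 4.50). Its summit lay 293 bp from the 3′ end of that gene. Which RNA the fragments of the AY036118 peak came from was not tested. Only 7 of the 200 summits held 100 fragments or more, this one, the 5 of Malat1 and the first of Xist. After them came 4930578N18Rik with 99, Xist with 96, and Gm43305 and Xist with 92 each. Gm43305 held 4 peaks that covered 87.8% of its 5.05 kb, at 3.10 to 4.19-fold, and Gm42031 held 4 at 3.72 to 9.92.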

How the data were processed

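The 2 libraries, 1 ac4C immunoprecipitation and 1 input control, were grouped by their titles. The authors deposited 1 peak list of 10 unnamed columns (narrowPeak), giving per peak a fold enrichment (a ratio), a −log10 p and a −log10 q. The submitters' processing notes name HISAT2 2.2.1, MACS3 3.0.0a7 and the build mm10 (GRCm38), without roles or settings. Whether the background came from the input was not given in the sources used here. The largest q was 0.0499.

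Fragments and background at each summit were recovered as the whole number that matched both fold enrichment (pseudocount 1) and p-value, in 21192 of 21192 peaks (largest relative miss 8.58e-06), a step tested on simulated data. Library totals were not used here, and PCR copies could not be told apart. In the median lncRNA peak the 95% interval ran from 63.6% to 150.5% of the value. Genes came from RefSeq GRCm38.p6 (49997 genes), with strand taken from its promoter table for 108 of the 139 genes.

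No test was possible with 1 library on each side. Named were the 10 genes with most peaks, the 10 deepest and the 10 highest peaks, and listed lncRNAs with a peak; Hdnr, the antisense genes, other microRNA hosts and the genes of the printed windows were named after their values were seen. Members and lists were chosen with earlier results of these data known. Without a genome, sequence content of peaks was not computed. Some antisense pairs are not reported here by name. Python 3.11.15, pandas 2.3.3 and scipy 1.17.1 were used. Alternatives changed thresholds, overlap rules, exclusions and widths.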

Additional observations from a re-analysis of the deposited data

How the results depend on the processing

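With 1 library on each side, no alternative leaves out a replicate. No paired analysis was possible because each group has 1 library. Across 80 alternative values of the 8 summary results, 56 stayed near the reported value. A −log10 q of at least 10 gave 91 peaks in 58 genes, with a median fold enrichment of 6.71, 34 fragments, a width of 380 bp and 20.9% at 10-fold or more. Peaks at or above the median fold of the list numbered 75 in 63 genes, 0.708% of such peaks, with a median of 8.23, 25.3% at 10-fold or more and at most 5 in a gene; Malat1 and Carmn then held 0. Both filters select higher peaks by construction. With protein-coding spans not excluded there were 1015 peaks (4.79%) in 621 genes, with a median of 5.42. Without Gm, LOC and RIKEN clone symbols there were 75 peaks (0.354%) in 34 genes. Symbols such as AY036118, AU020206 and AW046200 stayed among them. These 75 had a median of 4.04 on 36 fragments and 0% at 10-fold or more. The share of the list was 0.703% without summits within 5 kb of a protein-coding gene. It was 0.764% without summits in genes of another kind, an alternative chosen after the data were seen, which left 0 peaks in Xist. Leaving out peaks at the lowest background, also chosen later, left 1 of the 4 peaks of Gm52861, which held 2 without those within 5 kb of a protein-coding gene. The cause was not tested.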

Other observations

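Peaks that lay in an lncRNA gene and in a protein-coding span at once numbered 815, in 502 lncRNA genes, of which 20 also held peaks outside such spans. Their median fold enrichment was 5.56, beside 5.57 for peaks in 1 protein-coding gene. The largest number in one lncRNA gene was 8, in Gm20605 (spans of Lrch4 and Sap25), Gm15589 (Kcnh2), Gm15738 (Mrtfb) and Gm10644 (Adgrl1), genes named after their values were seen. In Hox clusters, Hoxb3os held 4 such peaks of up to 19.3-fold inside Hoxb2 or Hoxb3, and Hoxb5os held 5 of up to 5.61 inside Hoxb5 or Hoxb6. Dlx6os1 held 3 of up to 14.6 inside Dlx6. The list gives no strand, so the genes of a pair cannot be told apart.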
